A study of Mus musculus with 8 samples.

Results

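The 10 genes described here encode the guanylin and uroguanylin peptides, their receptor and effector kinase, and the chloride, sodium and water channels through which an epithelium moves fluid. They are Guca2a, Guca2b, Gucy2c, Prkg2, Cftr, Scnn1a, Scnn1b, Scnn1g, Aqp5 and Aqp8, taken by symbol from tables of 24346 gene symbols, and all 10 were found. The set was chosen by the FPKM differences between cKO and control in these same libraries. The 8 RNA-seq libraries come from epithelium of the mouse uterus, 5 of Smad2/3 cKO mice and 3 of control mice. The cKO mice carried floxed Smad2 and floxed Smad3 on both alleles and a Pgr-cre knock-in, which expresses Cre recombinase from the progesterone receptor locus, and the controls are labelled only as control. Both groups are on a mixed C57BL/6/129S6/SvEv background. Per the labels, Pgr-cre is also active in the ovary, oviduct, mammary gland and pituitary gland, so deletion was not restricted to the uterus. The sources used here do not give the age of the animals, their cycle stage, the alleles of the controls or how epithelium was separated from other layers. No label says that each library came from a separate mouse, so the spread between libraries may be technical in part.

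Guanylin and uroguanylin are small secreted peptides, best known from the intestine, where they bind the membrane guanylate cyclase GUCY2C on the luminal side of epithelial cells. The cyclic GMP made by this receptor activates the kinase PRKG2, which opens the chloride channel CFTR and slows sodium uptake, so that salt and water move into the lumen. The epithelial sodium channel ENaC, built from the subunits encoded by Scnn1a, Scnn1b and Scnn1g, works the other way and draws sodium and water out of the lumen. Aquaporins let water follow across the cell membrane. In the uterus, CFTR and ENaC are known for setting the volume of luminal fluid over the cycle and before implantation.

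Values are FPKM, fragments per kilobase of transcript normalized to mapped fragments, put on 1 scale across libraries and called scaled FPKM below. They are per length and can be compared between genes. The estimated depth was 44.2 to 55.2 M mapped fragments in the cKO libraries and 52.5 to 55.5 M in the controls. Smad2, a targeted gene, was 3.03 to 4.02 scaled FPKM in cKO and 5.69 to 6.35 in control. Smad3 was 20.6 to 42.6 in cKO and 25.6 to 31.5 in control, and does not separate the groups. All 14 epithelial markers were above the filter on low values, and their summed level was 6366 to 10590 scaled FPKM in cKO and 7114 to 7737 in control. Of 14 intestinal markers, 12 stayed below 1 scaled FPKM in every library and 6 (Cdx2, Fabp1, Alpi, Sis, Apoa4 and Tff3) were listed at 0 in all 8. Summed stromal markers were 157 to 331 in cKO and 241 to 424 in control, and summed muscle markers 18.1 to 129 in cKO and 66.7 to 384 in control, with control 1 highest in both. Summed neutrophil markers were 310 to 1996 in cKO and 214 to 416 in control. Of 7 tested neutrophil markers, 2 were called higher in cKO, where 7.27% of all tested genes were. The part of these cell types in the results below was not tested.

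The members were chosen with the cKO against control difference known, so their levels and differences are a description and carry no p-value. The log2 differences are cKO minus control on the log2(scaled FPKM + 1) scale, with the standard error of a limma fit over all 11315 tested genes. This scale understates the difference of genes with low values. Of the 10 members, 8 met the filter of at least 1 scaled FPKM in at least 3 libraries. Guca2a, Scnn1g and Aqp8 met it through cKO libraries alone. Of these 8, 4 (Guca2a, Guca2b, Scnn1b and Scnn1g) were past an adjusted p of 0.05 and higher in cKO, where 14.3% of all tested genes were called and 7.27% were called higher. Without control 2 or without control 3, this number was 2. The cKO libraries lay above all controls for 5 members, the same 4 and Scnn1a, where 24.6% of tested genes had groups without overlap and 11.7% had the cKO libraries above. Nothing is read from these counts, since the rule used the same contrast.

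**Figure D1:**
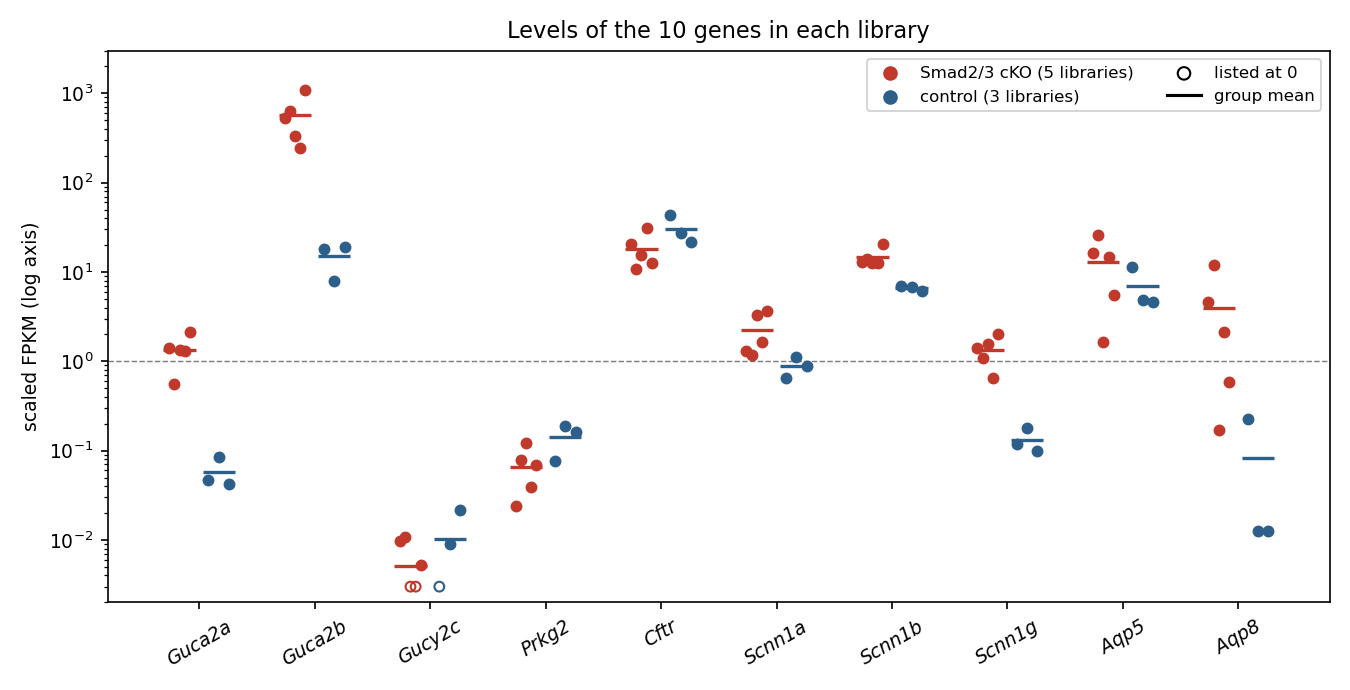
Scaled FPKM (log axis) of the 10 genes, with 1 point per library, Smad2/3 cKO (5 libraries) left of control (3 libraries), bars at group means and open circles for values listed at 0. Guca2b stands between 246 and 1100 in cKO and between 8.0 and 19.3 in control, while Gucy2c and Prkg2 stay below 0.2 in every library (dashed line at 1).

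Guca2b, which encodes uroguanylin, lies on the minus strand of chromosome 4 (mm10, 119656603 to 119658945). Its scaled FPKM was 530, 635, 335, 246 and 1100 in cKO 1 to 5, and 17.9, 8.0 and 19.3 in controls 1 to 3. The groups were far apart, with the lowest cKO library, cKO 4, more than 10-fold above the highest control, and cKO 5 stood well above the other cKO libraries. The means were 569 ± 334 in cKO (SD, n = 5) and 15.0 ± 6.14 in control (SD, n = 3), 37.8-fold apart, and the log2 difference was 5.05 ± 0.48. By level, Guca2b ranked between 37 and 197 among 24331 symbols in the cKO libraries and between 3164 and 6130 in the controls. It was thus among the most abundant genes of each cKO library. The mean was 560 ± 469 in cKO 3 to 5 (SD, n = 3), where cKO 5 carries much of it, and 583 in cKO 1 and cKO 2, whose titles belong to another number series. Every library of both series was above the controls, and without cKO 5 the log2 difference was 4.76.

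Guca2a, which encodes guanylin, lies 17.1 kb from Guca2b on the plus strand (119637732 to 119639465), and the 2 genes point toward each other. Its scaled FPKM was 1.41, 0.556, 1.34, 1.32 and 2.12 in cKO 1 to 5, and 0.0468, 0.0844 and 0.0419 in controls 1 to 3. All cKO libraries were above all controls, but the level was low in both groups: the control values correspond to an estimated 1, 2 and 1 fragments, and the cKO values to 31, 11, 26, 29 and 42. From 139 fragments in cKO against 4 in control, the ratio per depth was 23.5, with a 95% interval of 8.97 to 87.4 (exact Clopper-Pearson, counting error only). The interval leaves out the spread between libraries and the choice of Guca2a by this same contrast. It describes the counts and is not a test of the difference. The log2 difference was 1.12 ± 0.21. In every library uroguanylin exceeded guanylin, by 187-fold to 1142-fold in cKO and by 94.8-fold to 459-fold in control. These ranges overlapped, but the control ratios divide by 1 or 2 fragments of Guca2a, too few to compare the ratio between the groups.

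The 250 bases before the annotated starts of the 2 ligand genes are shown because both genes were higher in cKO and are neighbours. They are RefSeq sequences of build GRCm38.p6, at chr4:119658946-119659195 (minus strand) for Guca2b and at chr4:119637482-119637731 (plus strand) for Guca2a, each read 5′ to 3′ on the strand of its gene. Capitals mark 3 motifs, searched on both strands and chosen after the sequences were seen: CAGAC, the core of the SMAD-binding element, then AGATAA, the element of GATA factors, and last GTTAAT, part of the site of HNF1 factors.
Guca2b: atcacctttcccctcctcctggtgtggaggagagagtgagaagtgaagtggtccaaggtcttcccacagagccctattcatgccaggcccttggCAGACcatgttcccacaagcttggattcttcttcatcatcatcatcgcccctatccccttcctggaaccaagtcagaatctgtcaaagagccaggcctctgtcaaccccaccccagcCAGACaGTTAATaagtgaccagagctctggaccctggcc
Guca2a: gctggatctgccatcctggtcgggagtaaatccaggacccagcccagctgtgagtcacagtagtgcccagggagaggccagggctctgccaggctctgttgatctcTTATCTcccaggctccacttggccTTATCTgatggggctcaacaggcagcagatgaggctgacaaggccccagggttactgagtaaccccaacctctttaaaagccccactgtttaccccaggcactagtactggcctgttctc

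The Guca2b window held CAGAC at -156 and -39 from the start and GTTAAT at -33, separated from the second CAGAC by a single base. The Guca2a window held neither, and held AGATAA on the reverse strand at -144 and -120. Of 32851 RefSeq windows of the same length, 42.2% held CAGAC, 9.99% held AGATAA and 6.43% held GTTAAT. Of the 7 members with a promoter in the table, 3 held CAGAC (Guca2b, Scnn1g and Aqp5), so this motif is not shared by the 2 ligand genes. A match is a description of the letters and not a binding site.

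The other genes with a part within 250 kb of the Guca2b start, 7 in all, were compared to see how far the difference reached along the chromosome. Foxj3, the next gene beyond Guca2a, was 7.87 ± 0.76 scaled FPKM in cKO and 7.37 ± 0.22 in control (log2 difference 0.08 ± 0.09, limma adjusted p = 0.584). Ppcs was 8.05 ± 0.78 and 9.41 ± 1.14 (-0.20 ± 0.11, adjusted p = 0.241), and Hivep3, on the other side, was 0.57 ± 0.43 and 1.06 ± 0.47 (-0.40 ± 0.24, adjusted p = 0.274), cKO first. None of these 3 tested neighbours passed. Of the 4 below the filter, Rimkla did not overlap between the groups, at 0.093 to 0.243 in cKO and 0.033 to 0.042 in control. These values are near 0 and were not tested. The others overlapped.

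**Figure D2:**
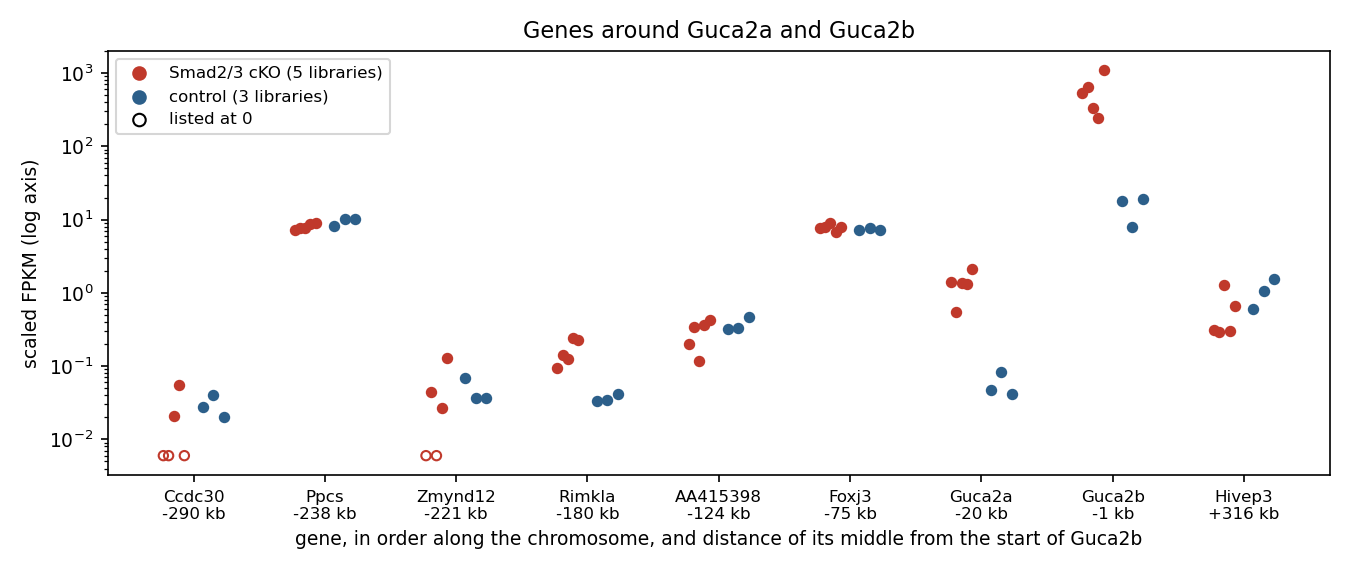
Scaled FPKM (log axis) of genes around Guca2a and Guca2b in each library, cKO left of control, ordered along the chromosome with the distance of each gene's middle from the start of Guca2b in kb and open circles for values listed at 0. Foxj3 and Ppcs overlap between groups at about the same level, while Guca2a and Guca2b are separated, as is Rimkla at 0.243 or less.

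The receptor and the kinase that act below these ligands in the intestine were at or near 0. Gucy2c (chromosome 6, 136697284 to 136781742) was listed at 0 in cKO 3 and cKO 4, with 0.00983, 0.0107 and 0.00528 scaled FPKM in cKO 1, 2 and 5. It was listed at 0 in control 1, with 0.00896 and 0.0219 in controls 2 and 3. These levels rest on an estimated 0 or 1 fragments in each cKO library and 0, 1 and 4 in the controls, so no fold is given and no difference was detectable at this depth. Gucy2c thus did not accompany the high Guca2b of the cKO libraries.

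Prkg2 (chromosome 5, 98929773 to 99037079) was 0.0241, 0.0784, 0.120, 0.0394 and 0.0690 scaled FPKM in cKO 1 to 5 and 0.0770, 0.187 and 0.160 in controls 1 to 3. The groups overlapped, and cKO averaged 0.0663 ± 0.0374 (SD, n = 5) against 0.141 ± 0.0572 (SD, n = 3) in control, from an estimated 77 and 112 fragments. Neither gene met the filter in either group, so neither was tested.

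Cftr, the chloride channel gene at the end of this pathway (chromosome 6, 18170687 to 18322769), was expressed in every library. It measured 20.8, 10.9, 15.4, 31.1 and 12.5 scaled FPKM in cKO 1 to 5 and 43.0, 27.2 and 21.6 in controls 1 to 3. The groups overlapped through cKO 4, which was above controls 2 and 3, while the other 4 cKO libraries were below all controls. The means were 18.1 ± 8.16 in cKO and 30.6 ± 11.1 in control, and the log2 difference was -0.76 ± 0.34. Control 1, the library highest in stromal and muscle markers, was also the highest in Cftr. Without control 1 the log2 difference was -0.50, and with the stromal and muscle level in the model it was -0.49. Among the cKO libraries that level was highest in cKO 3 (mean log2 4.44), while cKO 4, the highest in Cftr, had 3.18. The lowest of them in both was cKO 2, with 2.73. The part of stroma and muscle in the Cftr difference was not tested.

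The ENaC subunit genes were all higher in every cKO library than in any control, by different amounts. Scnn1b (chromosome 7, 121865038 to 121918728), a subunit that is needed for the full current of the channel, was 13.0, 14.1, 12.6, 12.7 and 20.7 scaled FPKM in cKO 1 to 5 and 6.96, 6.83 and 6.08 in controls 1 to 3. The controls lay close together, and 4 of the 5 cKO libraries lay within 12.6 to 14.1 with cKO 5 apart. The means were 14.6 ± 3.46 in cKO and 6.62 ± 0.479 in control, 2.21-fold apart (log2 difference 1.01 ± 0.16). Of its 3 annotated transcripts, that of 2694 bases carried most of the level, with 10.5 to 20.4 deposited FPKM in cKO and 6.10 to 6.86 in control.

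Scnn1g, whose locus lies 96.6 kb from that of Scnn1b (121734507 to 121768477), was 1.40, 1.09, 1.55, 0.657 and 2.02 scaled FPKM in cKO 1 to 5, and 0.118, 0.178 and 0.10 in controls 1 to 3. The groups were clearly apart, with an estimated 103 to 285 fragments per cKO library and 17 to 30 per control. By group means the difference was 10.2-fold, and the log2 difference was 1.02 ± 0.19. The gamma subunit thus had the largest fold of the 3, from the lowest control level.

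Scnn1a (chromosome 6, 125321340 to 125344942) encodes the alpha subunit, without which the channel does not conduct. It was 1.31, 1.17, 3.32, 1.66 and 3.70 scaled FPKM in cKO 1 to 5 and 0.645, 1.12 and 0.897 in controls 1 to 3. The groups came close, with cKO 2 only just above control 2. The means were 2.23 ± 1.19 and 0.888 ± 0.24, cKO first (log2 difference 0.71 ± 0.28). The difference was larger in cKO 3 to 5, 3.26-fold over control, than in cKO 1 and cKO 2, 1.39-fold. Within the main title series (6 libraries) the log2 difference was 1.02 ± 0.24.

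Scnn1b was the most abundant subunit in every library. It made up 72.1% to 86.2% of the summed level of the 3 genes in cKO and 84.0% to 90.1% in control. Scnn1g made up 4.38% to 8.89% in cKO and 1.42% to 2.18% in control, and Scnn1a 7.12% to 19.0% and 8.35% to 13.8%, cKO first. The summed level was 15.0 to 26.4 scaled FPKM in cKO and 7.07 to 8.13 in control. The 3 subunits did not share 1 order among the cKO libraries, though cKO 5 was the highest for each of them and for both ligands.

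**Figure D3:**
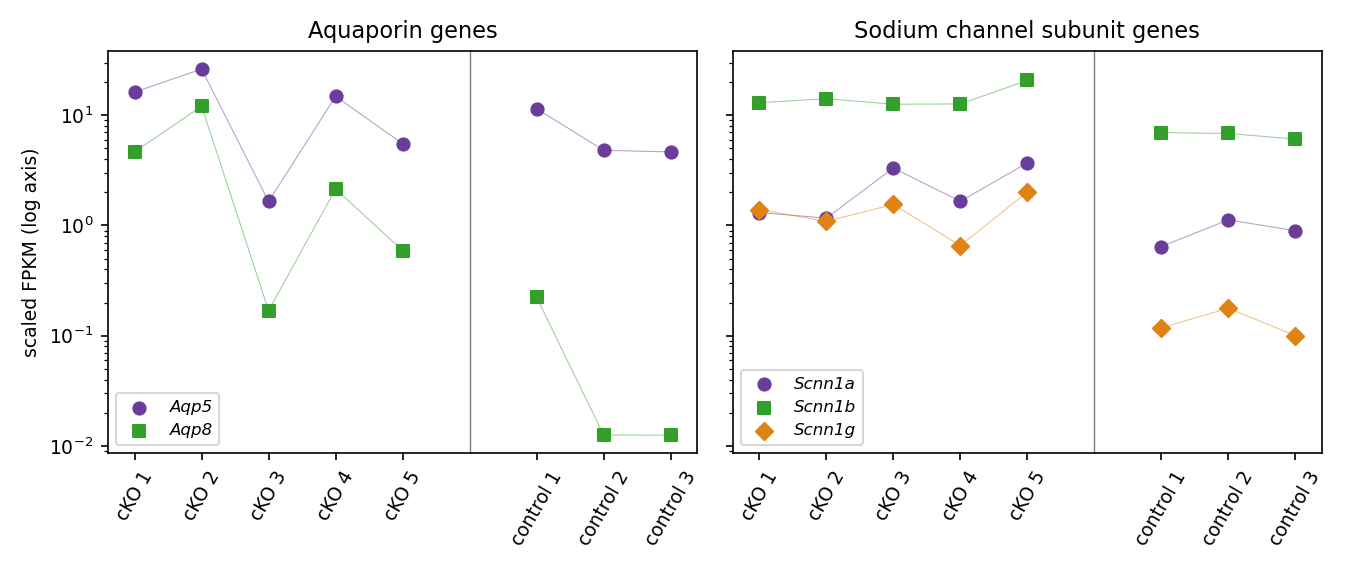
Scaled FPKM (log axis) of Aqp5 and Aqp8 (left panel) and of Scnn1a, Scnn1b and Scnn1g (right panel) in cKO 1 to 5 and, to the right of the vertical line, controls 1 to 3, with thin lines that only help to follow 1 gene. Aqp5 and Aqp8 are highest in cKO 2 and lowest among cKO in cKO 3, where Scnn1a is at 3.32.

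The aquaporin genes varied widely between the cKO libraries. Aqp5 (chromosome 15, 99591028 to 99594829), a water channel of secretory epithelia, was 16.2, 26.2, 1.65, 14.8 and 5.53 scaled FPKM in cKO 1 to 5, and 11.5, 4.81 and 4.65 in controls 1 to 3. The cKO libraries lay on both sides of the controls, with cKO 3 below all of them. The means were 12.9 ± 9.67 in cKO and 6.99 ± 3.91 in control, and the log2 difference was 0.50 ± 0.70, smaller than its error. With the main title series alone it was -0.19 ± 0.67, the opposite sign, and it was also below 0 with a term for title series (-0.19) or for the level of stroma and muscle (-0.03).

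Aqp8 (chromosome 7, 123462294 to 123468003), a water channel that also passes ammonia and hydrogen peroxide, was 4.66, 12.1, 0.169, 2.14 and 0.593 scaled FPKM in cKO 1 to 5. In controls 1 to 3 it was 0.223, 0.0126 and 0.0125, where controls 2 and 3 rest on less than 1 estimated fragment each. The groups overlapped through cKO 3, which was below control 1. The log2 difference was 1.64 ± 0.70, and no fold of means is given because it turns on control 1 and cKO 2. The log2 difference was 0.74 with a term for title series, 0.96 with a term for the level of stroma and muscle and 3.56 with a pseudocount of 0.1. The mean was 8.37 in cKO 1 and cKO 2, against 0.968 ± 1.04 in cKO 3 to 5 (SD, n = 3). The title series and any other property of those libraries cannot be told apart. The order of the cKO libraries was the same for both aquaporins, from cKO 2 over cKO 1, cKO 4 and cKO 5 to cKO 3.

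Other genes of these pathways were taken from 4 lists of 110 genes in all, none of them among the 10 members. The lists were chosen with earlier results of these data known. Their shares and medians, here and in the paragraphs below, are thus a description beside the values of all tested genes. Of these, 74 met the filter, and 11 were higher and 7 lower in cKO (limma, Benjamini-Hochberg adjusted p below 0.05 over all tested genes), 14.9% and 9.46% against 7.27% and 6.98% of all tested genes. The higher calls were mostly on the sodium side and the lower ones on the anion and potassium side, as described next. With TPM, which moved the median log2 difference of all genes to -0.20 in place of -0.005, the numbers were 8 higher and 12 lower of 81, and 23.5% of all calls were higher in place of 51.0%. In bulk RNA, fewer cells of a type and less RNA per cell cannot be told apart.

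Genes of sodium absorption and its control that passed the test were mostly higher in cKO. Of 38 listed, 31 were tested, 9 were higher and 1 was lower, 29% and 3.23% against 7.27% and 6.98% of all tested genes. The median log2 difference was 0.44 against -0.005 over all tested genes. With TPM the calls were 7 higher and 3 lower with a median of 0.17 (-0.20 over all genes). They were 16 and 4 with array weights, and 7 and 1 without a filter, there with a median of 0.24. Atp1b1, the beta subunit of the sodium pump that drives all sodium transport, rose to 198 ± 42.8 scaled FPKM in cKO against 75.3 ± 15.0 in control (log2 difference 1.38 ± 0.20, adjusted p = 0.00403). Fxyd3, a small regulator of the same pump, rose to 1021 ± 149 against 418 ± 76.5 (1.29 ± 0.18, adjusted p = 0.00305).

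Proteases and ubiquitin ligases control ENaC at the cell surface. Tmprss4, a membrane protease that activates the channel, rose to 263 ± 15.3 scaled FPKM in cKO against 153 ± 24.4 in control (log2 difference 0.79 ± 0.12, adjusted p = 0.00513). Spint1, which inhibits such proteases, rose to 131 ± 24.5 against 57.4 ± 11.2 (1.18 ± 0.19, adjusted p = 0.0055). Nedd4l, the ubiquitin ligase that takes ENaC off the membrane, rose to 10.3 ± 1.04 against 6.13 ± 0.525 (0.66 ± 0.10, adjusted p = 0.00517), and Cnksr3, a scaffold that favours channel activity, to 5.19 ± 0.402 against 2.90 ± 0.332 (0.67 ± 0.10, adjusted p = 0.00453). The higher genes thus include activators and inhibitors of the channel. These 4 genes, Atp1b1 and Fxyd3 kept their calls in all 17 alternatives.

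The remaining higher genes, which the naming rule left out and which were picked with their values known, were the kinase gene Sgk1, which protects ENaC from NEDD4L, the matriptase gene St14 and the sodium-glucose carrier gene Slc5a1. Sgk1 was 14.9 ± 1.26 scaled FPKM in cKO and 6.73 ± 3.05 in control (log2 difference 1.10 ± 0.20, adjusted p = 0.0108), and lost its call without control 2 or control 3, where the log2 difference was 0.98 and 0.93 and the adjusted p reached 0.0653. The calls of St14 (0.53 ± 0.14) and Slc5a1 (0.63 ± 0.16) were lost in 11 and 10 of 17 alternatives. Furin, a protease that cuts ENaC subunits on their way to the membrane, fell to 30.03 ± 1.93 in cKO against 41.6 ± 4.43 in control (-0.46 ± 0.10, adjusted p = 0.0178), a call lost in 4 alternatives. Spint2, an abundant gene without a call and an inhibitor of membrane proteases, was 854 ± 162 and 628 ± 78.4, cKO first (adjusted p = 0.158). With array weights Spint2 was called higher. The sodium-proton exchanger gene Slc9a3, which cyclic GMP slows in the intestine, was listed at 0 in all 8 libraries.

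**Figure D4:**
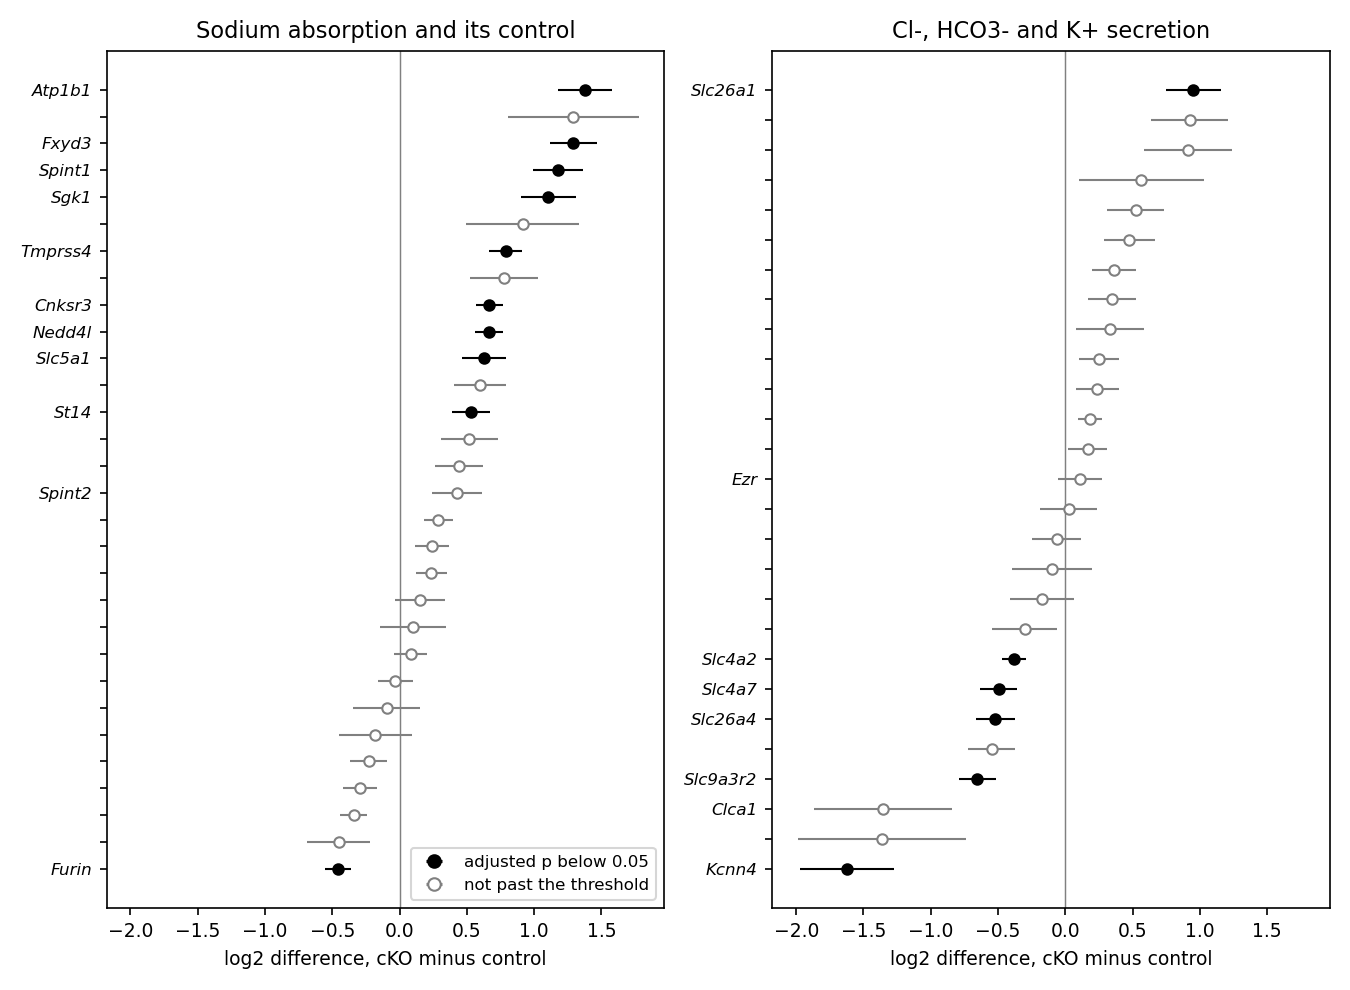
Log2 differences (cKO minus control, log2(scaled FPKM + 1) scale) with standard errors for the tested genes of sodium absorption and its control (left, 30 of the 31 genes) and of chloride, bicarbonate and potassium secretion (right, 27 of the 28 genes), with names on those called or named by the rule and filled points at an adjusted p below 0.05. Most filled points are right of 0 in the left panel (9 against 1) and left of 0 in the right panel (5 against 1).

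Genes of chloride, bicarbonate and potassium secretion that passed the test were mostly lower in cKO, a balance that several alternatives did not keep. Of 33 listed, 28 were tested, 1 was higher and 6 were lower, 3.57% and 21.4% against 7.27% and 6.98% of all tested genes. The median log2 difference was 0.07 against -0.005 over all tested genes. Kcnn4, the calcium-activated potassium channel whose current sustains chloride secretion, fell to 6.66 ± 2.73 scaled FPKM in cKO against 20.8 ± 0.516 in control (log2 difference -1.62 ± 0.35, adjusted p = 0.0189). Slc9a3r2, a scaffold that links CFTR and sodium-proton exchangers to the cytoskeleton, fell to 16.0 ± 2.26 against 25.7 ± 3.50 (-0.65 ± 0.14, adjusted p = 0.0165). The anion exchanger genes Slc4a2 (-0.38 ± 0.09) and Slc26a4 (-0.52 ± 0.14) and the bicarbonate carrier gene Slc4a7 (-0.50 ± 0.14) were also called lower. Slc26a1, a sulfate and oxalate exchanger, rose to 21.9 ± 5.01 in cKO against 10.8 ± 2.35 in control (0.95 ± 0.20, adjusted p = 0.0176).

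The number of calls of this list varied with the libraries used. It was 2 higher and 2 lower without control 1, 0 and 1 without control 2, 0 and 0 without control 3, and 3 and 3 without cKO 4. Without cKO 1, 2 or 5 it was 1 and 3, with array weights 5 and 7, and in the model with the stromal and muscle level 1 and 0. Some calls were lost while the difference moved little, and other differences moved more. Kcnn4 lost its call without any 1 control, at a log2 difference of -1.61, -1.61 and -1.64 without controls 1, 2 and 3, and Slc4a2 likewise at -0.34, -0.40 and -0.39. Slc9a3r2 lost it without control 2 (-0.65) or control 3 (-0.56) and in the model with the stromal and muscle level (-0.67). Slc4a7 and Slc26a4 lost theirs in 12 alternatives each, at -0.33 to -0.55 and -0.35 to -0.57, and Slc26a1 in 3, at 0.80 to 0.97. With TPM, Slc4a7 and Slc26a4 kept their calls at -0.73. The difference of Kcnn4 ran from -1.3 without cKO 5 to -1.9 with TPM, with its call kept in both. Clca1, a secreted protein once taken for a chloride channel and the most abundant gene of the list, was 1349 ± 737 in cKO and 2998 ± 644 in control. It did not pass (adjusted p = 0.111), though its cKO libraries (389 to 2397) lay below all controls (2450 to 3706), as for 12.9% of tested genes. With array weights it was called. The membrane linker gene Ezr did not pass either, at 258 ± 39.3 and 239 ± 35.9 (adjusted p = 0.68), cKO first, and overlapped between the groups.

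Among the other genes of cyclic GMP signalling, 12 of 29 were tested and 1 (8.33%) was called, where 14.3% of all tested genes were called. Abcc4, a pump that exports cyclic nucleotides from the cell, rose to 18.4 ± 3.86 scaled FPKM in cKO against 10.0 ± 1.42 in control (log2 difference 0.80 ± 0.19, adjusted p = 0.0254). Its call was lost without control 2 (0.70), control 3 (0.80) or cKO 5 (0.78), with TPM (0.63) and in the model with the stromal and muscle level (0.88), where the log2 difference in brackets stayed positive. Nos2, an enzyme that makes nitric oxide, the activator of soluble guanylate cyclase, was 12.6 ± 4.66 in cKO and 27.0 ± 11.6 in control (adjusted p = 0.108). Nos2 was called lower without control 1 (log2 difference -1.43), with TPM (-1.26) and with array weights (-1.27). Vasp, a substrate of the cyclic GMP kinases, was 119 ± 17.4 and 100.2 ± 10.2 (adjusted p = 0.247), cKO first. The natriuretic peptide genes Nppa, Nppb and Nppc were below 1 scaled FPKM in every library. Not every receptor and kinase gene of this list was near 0. The receptor gene Npr1, picked with its values known, was 6.69 ± 1.42 in cKO and 7.16 ± 0.77 in control (adjusted p = 0.695). The kinase gene Prkg1, picked likewise, was 1.47 ± 0.30 and 0.84 ± 0.18, cKO first (adjusted p = 0.0916).

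Of 10 other aquaporin genes, 3 were tested and 0 called by limma, 1 of them with an unadjusted p below 0.05. Aqp4 was 5.32 ± 2.87 scaled FPKM in cKO and 15.6 ± 10.6 in control (adjusted p = 0.131), and Aqp1, an endothelial and stromal water channel, 1.95 ± 1.23 and 4.0 ± 2.55 (adjusted p = 0.239), cKO first. Aqp4 was the gene under the unadjusted threshold (log2 difference -1.36 ± 0.55), and missed a call only after adjustment over all tested genes. Aqp1 was not under that threshold before adjustment (-0.75 ± 0.41). Both spreads were wide, and the groups overlapped for both genes.

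The genes whose pattern over the 8 libraries was most like that of Guca2b were Defb1, Id3, Abcb1b, Vnn3 and S100g, in this order. Likeness is the root mean square difference between centred log2(scaled FPKM + 1) values, and was 0.59, 0.76, 0.76, 0.76 and 0.87. Defb1, a beta-defensin gene, was 191, 184, 180, 171 and 359.7 scaled FPKM in cKO 1 to 5 and 13.9, 7.52 and 8.63 in controls 1 to 3, and shares with Guca2b its highest library, cKO 5. For Cftr, the most abundant other member, they included Fam3c, Tacc2, Reps2 and Antxr1, at 0.25 to 0.32. Fam3c, a secreted protein gene, was 33.05 in cKO 4 against 13.6 to 23.3 in the other cKO libraries, and 26.4 to 39.5 in control. These patterns hold the group difference itself and are given as a description over 8 libraries.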

How the data were processed

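RNA of 8 libraries was analysed from the authors' deposited tables. Per the labels' protocols, total RNA was made into cDNA with random and poly-dT primers and sequenced on an Illumina HiSeq instrument. The tools were bcl2fastq 1.8.3, TopHat and Cufflinks, with mm10, per the submitters' processing notes. Whether strand was used in counting is not given here, so overlapping and antisense genes cannot be told apart, nor are versions of the aligner or the annotation known. The deposited tables hold FPKM per RefSeq transcript with 95% bounds, and a coverage signal that the authors deposited beside them, which was not used for any result.

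FPKM of 34535 transcripts was summed per symbol (24346), leaving out 15 symbols whose status was not OK in some library (Ltf and C3 among the marker genes). Each library was divided by its median ratio to the average library (geometric mean), taken over genes of 1 FPKM or more in all 8. The 11315 genes that reached 1 scaled FPKM in 3 or more libraries were tested. Fragment numbers were estimated from the deposited bounds, and depth from them. limma 3.58.1 in R 4.3.3 gave two-sided tests with a mean-variance trend on log2(scaled FPKM + 1), adjusted by Benjamini-Hochberg with a threshold of 0.05; no read counts were used. The fit was tested on simulated data.

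The members, the 4 pathway lists and the 10 marker lists were chosen with earlier results of these data known. From each pathway list the text names up to 6 called genes in each direction by adjusted p and the 2 most abundant genes without a call. Sgk1, St14, Slc5a1, Npr1 and Prkg1 are named outside this rule, as are Slc9a3, Nppa, Nppb and Nppc, which were below the filter. A few genes that the rule or the likeness ranking gives are not reported here, though counts over the lists include them. Oestrogen-raised and progesterone-raised uterine genes were also listed, as were endothelial, leukocyte, ovary and oviduct markers. Their tested members gave 1 higher and 1 lower of 9, 1 and 0 of 4, 0 and 0 of 3, 0 and 1 of 7, and 0 and 0 of 2, in that order. The epithelial, intestinal, stromal and muscle lists gave 0 and 0 of 14, 0 and 1 of 1, 0 and 1 of 8, and 0 and 0 of 8. Of all tested genes, 7.27% were called higher and 6.98% lower. A total of 17 alternatives were tried.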

Additional observations from a re-analysis of the deposited data

Results flagged for a closer look

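Among 36 genes checked over the 5 cKO libraries (the 10 members and the named or called pathway genes), 1 value stood apart by Dixon's test: Scnn1b in cKO 5, at 20.7 scaled FPKM, where the other 4 cKO libraries lay between 12.6 and 14.1 and the controls between 6.08 and 6.96. Chance flags about 1 in 20 groups. The 3 controls were not tested in this way.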

How the results depend on the processing

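No paired analysis was possible because the labels give no replicate numbers or pairs across groups. Over all tested genes 823 were higher and 790 lower in cKO. Leaving out 1 library gave 238 to 928 higher and 176 to 887 lower, with the lowest numbers without control 2 (238 and 186) and control 3 (242 and 176), and 441 lower without control 1. TPM gave 510 and 1662, array weights 1793 and 1733, and a term for stromal and muscle level 343 and 290. Of the pathway genes outside the 10 members, 11 were higher and 7 lower. Leaving out 1 library gave 6 to 13 higher (6 without control 2 or control 3) and 0 to 10 lower (3, 2 and 0 without controls 1, 2 and 3, and 4 without cKO 1, 2, 4 or 5). Array weights gave 23 and 13. The lower number was 12 with TPM, 4 without a filter, 3 with the main title series only, 4 with a title series term and 0 with a term for stromal and muscle level. The cause of these shifts was not tested.

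Of 18 pathway calls, 6 held in all alternatives. Of 127 member differences recomputed, 122 moved by less than the spread between libraries (residual SD of the gene). A change of the filter alone cannot move a difference, so those values were the same by construction. Where the spread was wide, large moves also count among the 122, as the change of sign of Aqp5 and Aqp8 at 0.74 in place of 1.64 with a title series term. The other 5 were Guca2a, Scnn1g and Aqp8 with a pseudocount of 0.1 (3.11, 2.57 and 3.56) and Guca2a and Scnn1g with TPM (1.79 and 1.56). That of Guca2b stayed between 4.67 and 5.40, and that of Aqp5 ran from -0.19 to 0.998. Genes near 0 are limited by depth, with 1 or 2 fragments behind Guca2a in each control.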
